A study of Mus musculus with 17 samples.

Results

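Claudins are membrane proteins of the tight junction, the belt that joins neighbouring epithelial cells near their apical side. Some claudins form pores that let selected ions or water pass between the cells, others seal that path, and the mixture changes from segment to segment of the nephron, the urine-forming tubule of the kidney. The 10 genes Cldn1, Cldn2, Cldn3, Cldn4, Cldn5, Cldn6, Cldn7, Cldn8, Cldn12 and Cldn15 were chosen by name and make up 10 of the 35971 genes in the files, and all 10 passed the filter on low counts. They were followed in the kidney RNA of 17 mice of a model of translocation renal cell carcinoma driven by the fusion protein PRCC-TFE3.

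All 17 mice carried a Rosa26 knockin allele of PRCC-TFE3 behind a stop cassette, which Cre recombinase removes. Of the 5 groups, 4 also carried Cre under the promoter of Cadherin 16 (Ksp-Cre), a gene of kidney epithelium, so that the fusion is made in tubular epithelial cells and not in every cell of the organ. The controls, Cre(−), were 4 mice without Cre, of which replicates 1 and 2 also carried floxed Hif1α alleles and replicates 3 and 4 carried no floxed allele. PRCC-TFE3 KI mice (KI, n = 3) carried Cre and no floxed Hif allele. The hypoxia-inducible factor Hif1α was also deleted in Cre-expressing cells of 4 mice (KI/Hif1α KO), Hif2α in 3 mice (KI/Hif2α KO) and both factors in 3 mice (KI/DKO), through homozygous floxed alleles. Mice of these genotypes were killed at 8 months. Each library is 1 kidney sample, so no value below belongs to a single segment, and the segments named below are background.

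Each library held 16504419 to 24668827 counts (median 18635282). The detection floor was set at 3 counts, or 0.122 to 0.182 CPM (counts scaled to library size), and covers counting error only. Hif1a ranged from 163 to 198 CPM in KI/Hif1α KO kidneys and from 184 to 232 CPM in KI kidneys, so the ranges overlapped. Epas1, which encodes Hif2α, ranged from 136 to 149 CPM in KI/Hif2α KO kidneys, below the 173 to 192 CPM of KI kidneys. These counts are summed over all exons, including those outside the floxed part, and kidneys also hold cells without Cre, so they are a weak check of the deletions. Markers of every nephron segment were detected in Cre(−) kidneys, with 13784 to 15981 summed CPM for the 11 proximal tubule markers. KI replicate 2 stood apart in adipocyte markers, with 800.0 summed CPM against 50.0 to 225.6 CPM in the other 16 libraries. Library numbers largely follow the groups, so library order and genotype cannot be told apart.

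Cldn3 and Cldn4 are single-exon genes that lie 39279 bases apart on mouse chromosome 5. In the mouse build GRCm38, Cldn4 (ENSMUSG00000047501.3) spans chr5:134945119-134946934 on the minus strand and Cldn3 (ENSMUSG00000070473.4) spans chr5:134986214-134987472 on the plus strand. Cldn1 (ENSMUSG00000022512.3) spans chr16:26356642-26371841 on the minus strand, and Cldn15 (ENSMUSG00000001739.14) spans chr5:136966616-136975858 on the plus strand. Of the 10 claudins, the first 3 of these had the largest rises in KI kidneys, and Cldn15 had the largest fall. The 250 bases upstream of their RefSeq transcription starts (GRCm38.p6) are shown for that reason, each 5′ to 3′ on the gene's own strand. Cldn4 is read from chr5:134946935-134947184 (minus strand), Cldn3 from chr5:134985964-134986213 (plus strand), Cldn1 from chr16:26371840-26372089 (minus strand) and Cldn15 from chr5:136967619-136967868 (plus strand). Capitals mark matches on either strand to 5 motifs, which are named after the sequences. The Cldn15 window lies inside the longer gene span that GENCODE gives.
Cldn4: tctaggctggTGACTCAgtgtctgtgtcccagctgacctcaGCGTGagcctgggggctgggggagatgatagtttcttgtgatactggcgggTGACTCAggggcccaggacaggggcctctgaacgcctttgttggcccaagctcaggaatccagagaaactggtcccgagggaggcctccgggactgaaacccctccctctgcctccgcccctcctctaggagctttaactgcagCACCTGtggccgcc
Cldn3: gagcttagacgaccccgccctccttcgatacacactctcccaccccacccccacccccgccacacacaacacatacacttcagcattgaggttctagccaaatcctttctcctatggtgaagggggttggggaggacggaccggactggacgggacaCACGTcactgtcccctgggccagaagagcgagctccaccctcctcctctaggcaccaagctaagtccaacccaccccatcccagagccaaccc
Cldn1: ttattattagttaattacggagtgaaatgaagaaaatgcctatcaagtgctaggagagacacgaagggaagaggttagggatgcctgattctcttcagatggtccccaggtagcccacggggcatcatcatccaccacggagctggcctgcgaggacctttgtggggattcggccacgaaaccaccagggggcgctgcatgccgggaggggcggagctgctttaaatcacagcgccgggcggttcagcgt
Cldn15: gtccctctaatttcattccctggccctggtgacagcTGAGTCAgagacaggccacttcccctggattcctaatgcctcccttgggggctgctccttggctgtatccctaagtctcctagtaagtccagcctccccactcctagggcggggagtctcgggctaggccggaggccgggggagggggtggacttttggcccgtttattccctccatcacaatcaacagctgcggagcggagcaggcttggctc

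CACGTG is a letter string read by basic helix-loop-helix zipper factors, the class to which TFE3 belongs. ACGTG, which lies inside CACGTG, and GCGTG are the core strings of hypoxia response elements. TGACTCA is read by AP-1, and CAGGTG by zinc finger factors such as Snai2. The Cldn4 window held TGACTCA at positions −240 and −158 from the transcription start, GCGTG at −209 and CAGGTG at −14. The Cldn3 window held ACGTG at −93, the Cldn15 window held TGACTCA at −214, and the Cldn1 window held none of the 5. Windows of 9 of the 10 claudins were present in the sequence table, which held none for Cldn8, and none of them held CACGTG. Over all 32851 windows of this length, CACGTG was present in 6.02%, ACGTG in 16.57%, GCGTG in 28.16%, TGACTCA in 4.46% and CAGGTG in 17.22%. These matches describe letters only, and binding was not measured in these libraries. The M-box, the string that the study names for the MiTF/TFE family, was not searched, nor were bases beyond these windows.

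In Cre(−) kidneys 1 of the 10 claudins outweighed the other 9. On the TPM scale, which divides by transcript length and so allows genes to be compared, Cldn2 stood at 244 ± 18.2 TPM (mean ± SD, n = 4). Cldn2 forms the cation and water pore of the proximal tubule. It made up 61.2% ± 1.80 of the summed TPM of the 10 claudins, which came to 398 ± 25.7 TPM. Outside the 10, Cldn10 reached 168 ± 12.5 TPM in the same kidneys. Next among the 10 came Cldn8, a claudin of the distal nephron and collecting duct, with 37.6 ± 7.50 TPM, and Cldn12, a widely expressed claudin, with 37.0 ± 4.32 TPM. The ranges of these 2 over the libraries overlapped. Cldn7, found along the distal nephron and collecting duct, followed with 29.1 ± 3.15 TPM, below the range of Cldn12. The next 5, from Cldn4 (11.6 ± 1.35 TPM) through Cldn15, Cldn3 and Cldn5 to Cldn1 (8.63 ± 2.34 TPM), each overlapped with their neighbours in the order. Cldn6, a claudin of embryonic epithelia, was last with 0.543 ± 0.109 TPM and only 6 to 14 counts per library.

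The order was different in KI kidneys. Cldn2 was still first at 232 ± 10.6 TPM (n = 3), but Cldn4 was second at 149.5 ± 23.3 TPM and Cldn1 next at 60.2 ± 5.19 TPM. Cldn4 is a claudin of the collecting duct that works together with Cldn8 in the passage of chloride, and Cldn1 is a sealing claudin known from the parietal layer of Bowman's capsule. Cldn8 was in rank 7 with 21.7 ± 3.24 TPM and Cldn15 in rank 9 with 6.64 ± 0.831 TPM. The ranges of Cldn1 and Cldn7 (53.7 ± 10.3 TPM) overlapped, as did those of Cldn3 and Cldn12, and the other neighbours in the order did not. The share of Cldn2 in the sum was 38.6% ± 1.63 and that of Cldn4 was 24.8% ± 2.59, against 2.93% ± 0.465 in Cre(−) kidneys. The ratio of Cldn4 to Cldn8 in TPM was 0.317 ± 0.0753 in Cre(−) kidneys and 7.01 ± 1.46 in KI kidneys, and no KI kidney was below 5.34. These shares and ratios are given as a description, without a test.

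**Figure D1:**
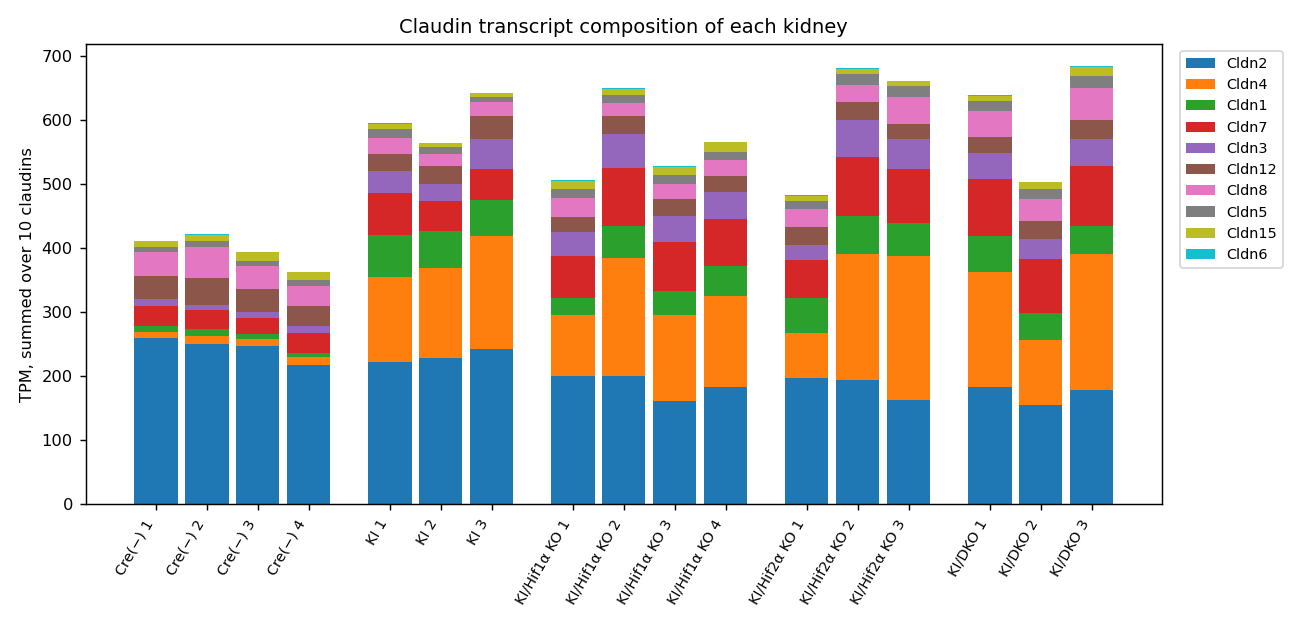
Stacked bars give the TPM of each of the 10 claudins in each of the 17 kidneys, grouped by genotype, with the total on the y axis. The Cre(−) bars reach 363 to 422 TPM and are mostly Cldn2, while the KI bars reach 564 to 643 TPM with a broad Cldn4 band. On the log2(TPM + 1) scale the median of all genes was itself 0.38 higher in KI than in Cre(−) kidneys.

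The first comparison asked how claudin mRNA differed between kidneys that express PRCC-TFE3 and kidneys that do not. Of the 10 claudins, 4 rose (Cldn4, Cldn1, Cldn3 and Cldn7), 4 fell (Cldn15, Cldn8, Cldn12 and Cldn2) and 2 (Cldn5 and Cldn6) did not pass the quasi-likelihood test of edgeR (Benjamini-Hochberg adjusted p under 0.05). Over all 17011 genes tested, 60.9% passed, 31.6% higher and 29.3% lower, so 8 of 10 is to be read against a background in which most genes differ. The median log2 fold change of the 10 was −0.09 and that of all genes was 0.03. The groups did not overlap in any of the 8 that passed, compared with 28.9% of all genes without overlap and higher and 27.7% without overlap and lower.

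Cldn4 differed most. Its CPM values, scaled by TMM factors, were 16.0, 18.3, 18.5 and 21.0 in the 4 Cre(−) kidneys and 147, 157 and 216 in the 3 KI kidneys. Every KI kidney was thus far above every control. The log2 fold change was 3.23 (SE 0.33), a 9.40-fold rise (edgeR adjusted p = 6.31e-07).

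Cldn1 was at 31.7, 29.3, 20.5 and 18.6 CPM in Cre(−) kidneys and at 134, 119 and 125 CPM in KI kidneys. It rose by 2.34 on the log2 scale (SE 0.19, edgeR adjusted p = 7.06e-08). The first 2 controls, which carry floxed Hif1α alleles, were higher than the other 2. The log2 fold change stayed between 2.06 and 2.82 in all 9 alternative fits, including those against either pair of controls. Cldn3, a sealing claudin found along the distal nephron, was at 11.7, 8.51, 9.93 and 12.3 CPM in Cre(−) kidneys and at 25.4, 19.8 and 38.7 CPM in KI kidneys. The KI kidneys varied widely but all lay above the controls, with a log2 difference of 1.40 (SE 0.25, edgeR adjusted p = 0.000178). Cldn7 rose least of the 4, from 25.6, 22.2, 20.7 and 23.0 CPM to 36.4, 28.6 and 30.0 CPM, a log2 fold change of 0.47 (SE 0.12, edgeR adjusted p = 0.00347).

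Among the claudins that fell, Cldn15, which encodes a cation pore best known from the intestine, was at 15.0, 14.9, 20.6 and 21.2 CPM in Cre(−) kidneys and at 8.05, 7.05 and 7.19 CPM in KI kidneys. The log2 difference was −1.27 (SE 0.21, edgeR adjusted p = 8.08e-05), and here the controls with floxed Hif1α were the lower pair. Cldn8 fell from 78.7, 93.0, 74.2 and 65.3 CPM to 36.1, 26.7 and 35.3 CPM, a log2 fold change of −1.25 (SE 0.19, edgeR adjusted p = 2.82e-05). No KI kidney came near the lowest control for either gene. In bulk kidney RNA, fewer cells of a type and less RNA per cell cannot be told apart.

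Cldn12 was at 120.2, 123, 114 and 103 CPM in Cre(−) kidneys and at 60.2, 63.0 and 84.7 CPM in KI kidneys (log2 fold change −0.73, SE 0.11, edgeR adjusted p = 4.91e-05). Cldn2 was at 725, 622, 657 and 612 CPM in Cre(−) kidneys and at 423, 432 and 506 CPM in KI kidneys (log2 fold change −0.53, SE 0.11, edgeR adjusted p = 0.000745). The calls for Cldn2 and Cldn12 depended on the scale. In limma on log2(TPM + 1), where the median of all genes was 0.38 instead of 0.03, Cldn2 differed by −0.07 (adjusted p = 0.541) and Cldn12 by −0.25 (adjusted p = 0.0627), and the share of higher genes among all calls was 78.2% instead of 51.9%. In TPM the Cldn2 ranges overlapped, with 217 to 259 in Cre(−) and 223 to 243 in KI kidneys. The other 6 calls held on that scale, with the same directions.

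Cldn5, the claudin of endothelial tight junctions, was at 11.1, 10.3, 9.00 and 12.2 CPM in Cre(−) kidneys and at 11.6, 8.56 and 7.82 CPM in KI kidneys. The groups overlapped, and the log2 fold change of −0.19 (SE 0.15, edgeR adjusted p = 0.272) became 0.24 in limma on log2(TPM + 1). Leaving out KI replicate 1 gave −0.38 (edgeR adjusted p = 0.0372). Of the 10 endothelial markers, 8 fell and none rose in KI kidneys, where 31.6% of all genes rose and 29.3% fell. Their median log2 fold change was −0.70, and their summed level was 564 to 816 CPM in Cre(−) and 433 to 453 CPM in KI kidneys. Cldn6 had 25, 5 and 5 counts in KI kidneys, too few to show a difference of ordinary size (log2 fold change 0.02, SE 0.60, edgeR adjusted p = 0.983).

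**Figure D2:**
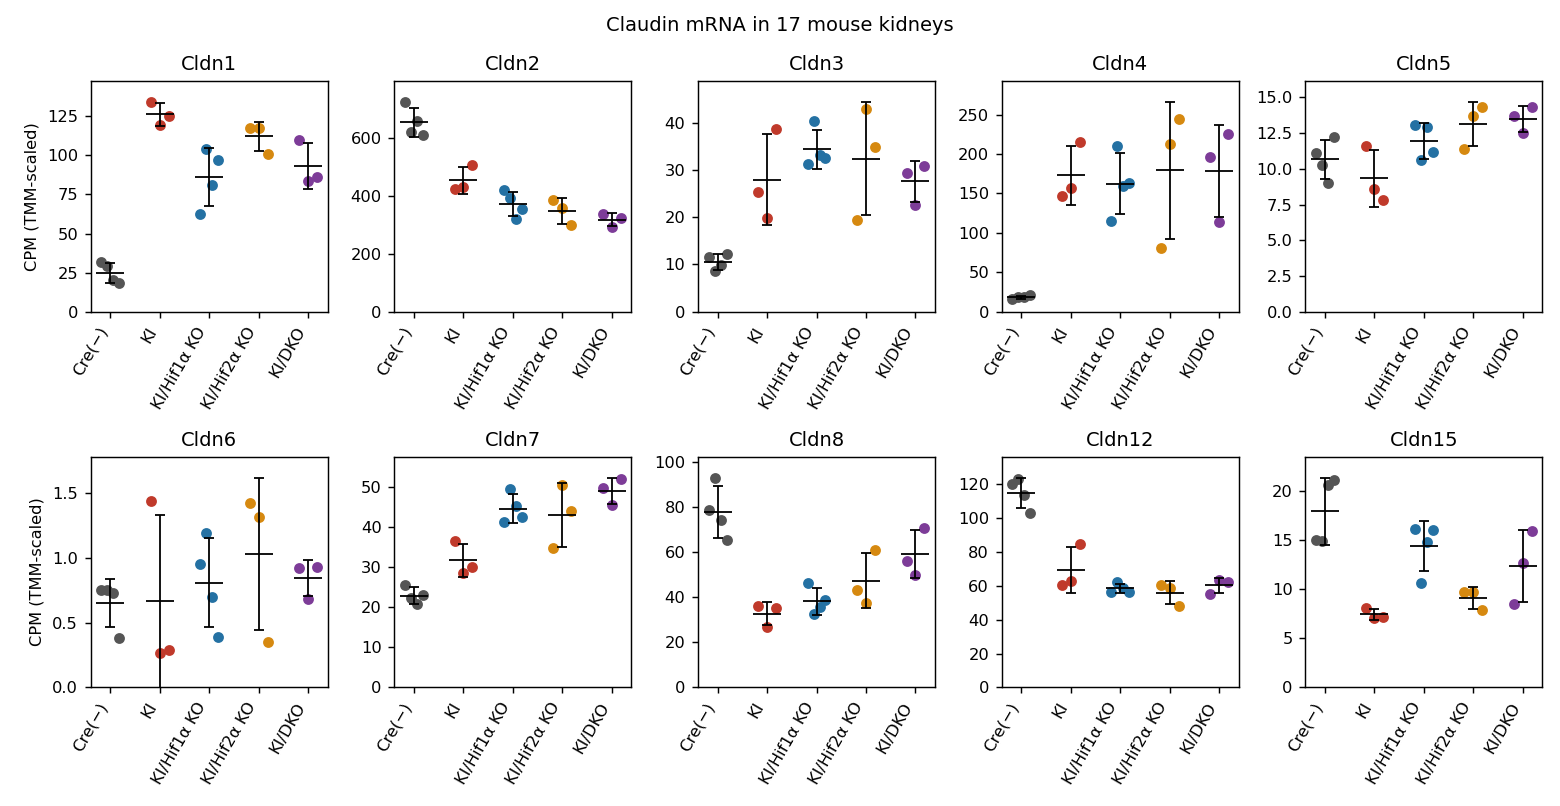
Each panel plots 1 claudin in CPM (y axis, linear, from 0) for the 5 groups, where points are kidneys and black bars are mean ± SD. Cldn4 and Cldn1 in the KI-derived groups lie above all Cre(−) points, Cldn8 and Cldn12 show mostly the opposite, and the lower SD limit of Cldn6 in KI kidneys falls below the axis.

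Markers of the nephron segments changed in the same kidneys, where 31.6% of all genes rose and 29.3% fell. All 11 proximal tubule markers fell in KI kidneys (median log2 fold change −4.06), and their summed level was 13784 to 15981 CPM in Cre(−) and 950.2 to 1225 CPM in KI kidneys. All 5 thick ascending limb markers fell (median −2.88), as did all 4 of the distal convoluted tubule (median −2.43) and all 6 of intercalated cells (median −2.35). Of the 7 markers of collecting duct principal cells, 5 fell and Aqp3, a basolateral water channel, rose (log2 fold change 1.28), and the sum went from 540.05 to 640.4 CPM in Cre(−) to 342 to 429 CPM in KI kidneys. All 5 tubular injury markers rose (median 4.47), among them Lcn2 with a log2 fold change of 5.73. Of 9 broad epithelial markers, 5 rose and 2 fell (median 0.74), and of 5 thin limb markers 1 rose and 3 fell (median −1.34). Of 5 stromal markers 4 rose (median 1.57), of 6 leukocyte markers 4 rose (median 1.00) and of 6 podocyte markers 5 fell (median −1.83). Against these values, the fall of Cldn2 was 0.53 on the log2 scale and the median of the proximal tubule markers was −4.06. The part of these shifts in the claudin values was not tested.

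**Figure D3:**
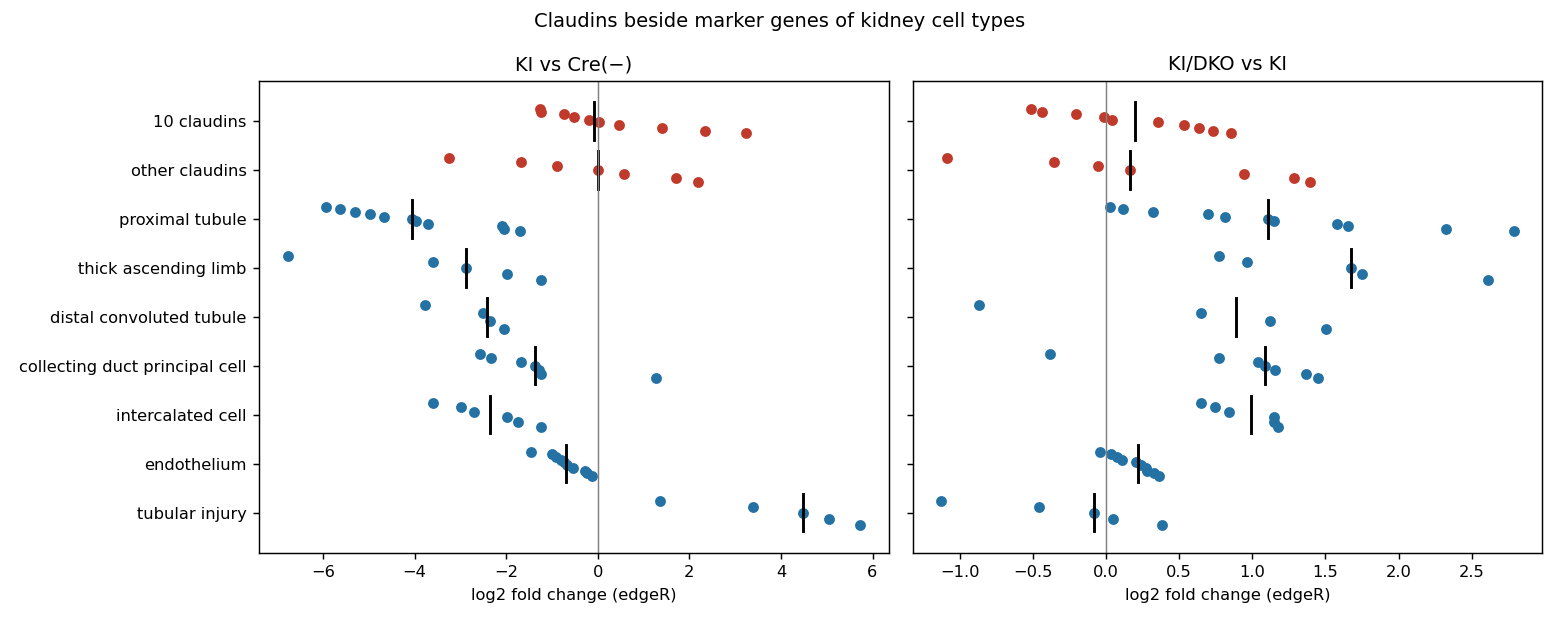
Points are genes and black bars are list medians, with the edgeR log2 fold change on the x axis for KI against Cre(−) (left) and KI/DKO against KI (right). In KI kidneys the claudins spread from −1.27 to 3.23 around 0, whereas proximal tubule markers centre on −4.06 and injury markers on 4.47.

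The other claudins and claudin-domain genes give the rest of the family. Of 22 such genes, 20 were in the files and 7 passed the filter. Of these 7, 3 rose and 3 fell in KI kidneys, where 31.6% of all genes rose and 29.3% fell. Cldn10, which forms paracellular pores for anions or cations in the proximal tubule and thick ascending limb, fell from 177 ± 8.80 CPM to 18.7 ± 5.46 CPM (log2 fold change −3.25, SE 0.24, edgeR adjusted p = 2.36e-08). Cldn16 and Cldn19, the pair needed for magnesium and calcium uptake in the thick ascending limb, differed by −1.68 (SE 0.24) and −0.89 (SE 0.29), with edgeR adjusted p = 2.3e-05 and 0.0159. The Cldn19 call was lost without KI replicate 2 (edgeR adjusted p = 0.0664) or KI replicate 3 (0.0637), against the floxed controls alone (0.0813) and with only the compared groups in the fit (0.0511). Those that rose were at low levels in KI kidneys, namely Cldn23 (1.43 ± 0.347 CPM), Cldn11 (2.36 ± 1.38 CPM) and Cldn34c1 (5.70 ± 0.294 CPM). Their log2 fold changes were 2.18, 1.70 and 0.58, and the call for Cldn11 was lost without Cre(−) replicate 1, Cre(−) replicate 3 or KI replicate 3 and against the controls without a floxed allele (edgeR adjusted p up to 0.161). Over all 32 genes in the files whose symbol is Cldn and a number, pseudogenes left out, the total was 597 ± 35.0 TPM in Cre(−) and 650.2 ± 42.3 TPM in KI kidneys, and Cldn2 took 40.8% and 35.7% of it. In limma on log2(TPM + 1) the median of all genes was 0.38 higher in KI kidneys, and the totals are to be read against that shift.

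Tight junction partners, which anchor claudins to the cytoskeleton or seal the corners where cells meet, moved in both directions. Of 31 tested, 10 rose and 14 fell (median log2 fold change −0.19), where 31.6% of all genes rose and 29.3% fell. Among the genes that rose were Ybx3, a junction-associated transcription regulator (0.94), and Lsr (0.76) and Marveld2 (0.75), which encode proteins of tricellular junctions. The largest falls were in Ildr2, a relative of Lsr (−2.16), the adhesion gene Jam3 (−1.66), Cgnl1, which encodes paracingulin (−1.46), and the scaffold gene Tjp3 (−0.80). The Tjp3 call was lost in limma on log2(TPM + 1) (adjusted p = 0.0624) and on log2(TPM + 0.1) (0.0579). Occludin (Ocln), a membrane protein of the same junction, was at 35.7 ± 2.13 CPM in Cre(−) and 29.4 ± 6.88 CPM in KI kidneys and did not pass (log2 fold change −0.28, edgeR adjusted p = 0.0579).

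Of 22 tested regulators of claudins or of epithelial state, 6 rose and 12 fell, where 31.6% of all genes rose and 29.3% fell. Snai2, a repressor of epithelial genes, rose with a log2 fold change of 2.15, Elf3, an epithelial transcription factor, with 1.45, Grhl2, an activator of junction genes, with 0.71 and Zeb2, another repressor, with 0.64. Klhl3, the ubiquitin ligase adaptor that acts on the WNK kinases and on Cldn8, had the largest fall of the list (−3.20), followed by Elf5 (−2.19), Ovol1 (−2.15) and Hnf4a (−2.04), a factor of the proximal tubule. All of these passed edgeR's test, with adjusted p between 2.8e-08 (Elf3) and 0.00643 (Elf5). Against the floxed controls alone, the Elf5 call was lost (edgeR adjusted p = 0.0615).

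The next comparisons asked how claudins differed when Hif1α, Hif2α or both were lost in addition. All of them use the same 3 KI kidneys as reference, so they are not independent of each other. The comparison of KI with Cre(−) uses these 3 kidneys too, so they are not independent of it either. Cldn4 overlapped with its KI level in each of the 3 groups. It was at 116, 211, 159.5 and 164 CPM in KI/Hif1α KO, at 80.9, 213 and 244 CPM in KI/Hif2α KO and at 196, 113 and 226 CPM in KI/DKO kidneys. KI/Hif2α KO replicate 1 was the lowest of all Cre-positive kidneys for Cldn4 and yet lay above every control. The log2 fold changes against KI were −0.09 (SE 0.31), 0.05 (SE 0.33) and 0.04 (SE 0.33), with edgeR adjusted p = 0.894, 0.953 and 0.953.

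Cldn3, the neighbour of Cldn4 on chromosome 5, was at 31.3, 40.4, 33.1 and 32.6 CPM in KI/Hif1α KO, at 19.4, 43.0 and 34.8 CPM in KI/Hif2α KO and at 29.4, 22.7 and 30.9 CPM in KI/DKO kidneys, with none of the 3 differences called. The kidney lowest in Cldn4 was also the lowest Cre-positive kidney for Cldn3, and within KI/DKO replicate 2 was lowest for both. Over the 17 libraries the log2 CPM of the 2 genes had Pearson r = 0.94, and r = 0.80 after group means were removed. These points share libraries and depth, so the correlation is given as a description only.

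In KI/Hif1α KO kidneys 2 of the 10 claudins were called against KI, both higher, where 5.44% of all genes were called, 2.57% higher and 2.86% lower. Cldn15 was at 16.1, 10.6, 14.8 and 16.0 CPM, above every KI kidney (at most 8.05 CPM), with a log2 fold change of 0.96 (SE 0.21, edgeR adjusted p = 0.0187). Cldn7 was at 41.3, 49.5, 45.1 and 42.4 CPM, also above every KI kidney (at most 36.4 CPM), with a log2 fold change of 0.49 (SE 0.12, edgeR adjusted p = 0.0293). Both calls were narrow. That of Cldn15 was lost without KI replicate 2, KI replicate 3, KI/Hif1α KO replicate 1 or KI/Hif1α KO replicate 3 (edgeR adjusted p 0.0516 to 0.066). That of Cldn7 was lost without KI replicate 2 or 3 or without KI/Hif1α KO replicate 1, 2 or 3 (edgeR adjusted p 0.0533 to 0.109).

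Cldn1 was at 62.3, 104, 80.8 and 96.9 CPM in KI/Hif1α KO kidneys, all below the KI kidneys and above the controls. Its log2 fold change of −0.55 (SE 0.18) missed the threshold in edgeR (adjusted p = 0.0919) and passed it in DESeq2 (adjusted p = 0.0407), which called 9.79% of all genes here. Cldn2, at 419, 392, 322 and 356 CPM, was also below every KI kidney and was not called (log2 fold change −0.29, edgeR adjusted p = 0.142). Cldn8, at 46.2, 32.3, 35.6 and 38.6 CPM, overlapped with KI and was not called (log2 fold change 0.22, edgeR adjusted p = 0.519). Over all genes, 8.96% were higher without overlap and 10.3% lower without overlap in this comparison.

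In KI/Hif2α KO kidneys none of the 10 claudins was called against KI by edgeR, where 1.39% of all genes were called, 0.741% higher and 0.647% lower. Of the 10, 5 had an unadjusted p under 0.05, as did 19.2% of all genes. DESeq2 called 3 of the 10 and 5.97% of all genes, with Cldn7 (log2 fold change 0.44, adjusted p = 0.0319) and Cldn5 (0.49, adjusted p = 0.0473) higher and Cldn2 (−0.38, adjusted p = 0.0317) lower. Cldn7 was at 34.6, 50.5 and 44.1 CPM, Cldn5 at 11.4, 13.7 and 14.3 CPM, and Cldn2 at 387, 358 and 299.8 CPM. Replicate 1 overlapped with the KI kidneys for Cldn7 and Cldn5, and no replicate did so for Cldn2. Without KI replicate 1, edgeR called Cldn5 (adjusted p = 0.0226) and Cldn7 (adjusted p = 0.0329), and without KI/Hif2α KO replicate 1 it called Cldn7 (adjusted p = 0.0399). Cldn15 was at 9.72, 9.72 and 7.85 CPM, overlapping with KI. Cldn8, at 43.3, 37.5 and 60.9 CPM, was above every KI kidney (log2 fold change 0.53, edgeR adjusted p = 0.155), and Cldn1, at 118, 117 and 101 CPM, was below every KI kidney (−0.17, edgeR adjusted p = 0.679). Without overlap, 9.52% of all genes were higher and 10.7% lower, and neither of these 2 claudins was called.

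In KI/DKO kidneys 5 of the 10 claudins were called, with Cldn8, Cldn15, Cldn7 and Cldn5 higher and Cldn2 lower, where 12.7% of all genes were called, 6.53% higher and 6.19% lower. Cldn8 was at 56.2, 50.0 and 70.8 CPM against 36.1, 26.7 and 35.3 CPM in KI kidneys, a log2 difference of 0.85 (SE 0.19, edgeR adjusted p = 0.0122). Its highest KI/DKO kidney reached into the range of the controls (65.3 to 93.0 CPM), a comparison that was not tested. Cldn7 was at 49.6, 45.5 and 51.9 CPM, the highest mean of the 5 groups, with a log2 fold change of 0.63 (SE 0.13, edgeR adjusted p = 0.00721). Its range overlapped with those of KI/Hif1α KO (up to 49.5 CPM) and KI/Hif2α KO kidneys (up to 50.5 CPM). Of the 5 calls, that of Cldn7 alone remained in all 6 fits with 1 replicate left out.

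Cldn15 was at 8.52, 12.6 and 15.9 CPM in KI/DKO kidneys, with replicate 1 just above the KI kidneys (log2 fold change 0.73, SE 0.22, edgeR adjusted p = 0.0392). Cldn5 was at 13.7, 12.5 and 14.3 CPM, above the 7.82 to 11.6 CPM of KI kidneys (log2 fold change 0.53, SE 0.16, edgeR adjusted p = 0.0362). Cldn2 was at 337, 294 and 323 CPM, below the 423 to 506 CPM of KI kidneys (log2 fold change −0.51, SE 0.12, edgeR adjusted p = 0.0133). Cldn2 was thus lower than in KI kidneys, which were themselves lower than the controls in CPM. Cldn1, at 110, 83.8 and 85.9 CPM, was also below every KI kidney and was not called (log2 fold change −0.44, SE 0.20, edgeR adjusted p = 0.156). Over all genes, 16.5% were higher without overlap and 17.2% lower without overlap in this comparison.

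Single kidneys decided some of these calls. The Cldn8 call was lost without KI/DKO replicate 3 (edgeR adjusted p = 0.062). That of Cldn2 was lost without KI replicate 3 (edgeR adjusted p = 0.065) or KI/DKO replicate 2 (0.0701). That of Cldn15 was lost without any of the 3 KI replicates or KI/DKO replicate 2 or 3 (edgeR adjusted p 0.0538 to 0.184), and that of Cldn5 without KI replicate 2 or 3 or any KI/DKO replicate (edgeR adjusted p 0.0694 to 0.146). On the TPM scale the directions of the 5 were the same and 4 were called, the Cldn15 call being lost in limma at both pseudocounts (adjusted p = 0.0536 and 0.0524), and the share of higher genes among all calls was 69.9% in limma on log2(TPM + 1) and 51.3% in edgeR.

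**Figure D4:**
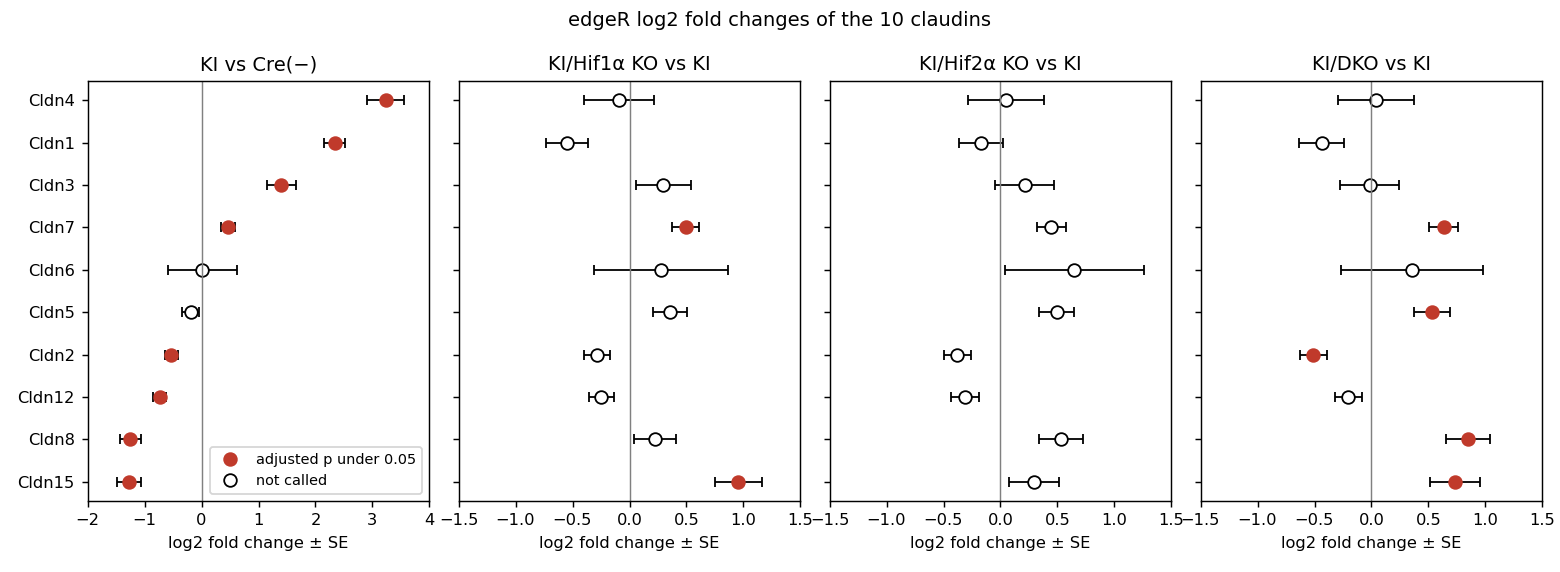
Points give the edgeR log2 fold change of each claudin (x axis, ± SE) in 4 comparisons, with filled points for an adjusted p under 0.05. The left panel, on a wider axis, holds 4 filled points above 0 and 4 below, and the Cldn4 points of the 3 knockout panels lie between −0.09 and 0.05.

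Cldn12 was at 56.6, 62.5, 58.5 and 56.2 CPM in KI/Hif1α KO, at 60.4, 58.9 and 48.1 CPM in KI/Hif2α KO and at 55.3, 63.2 and 62.1 CPM in KI/DKO kidneys, and none of its differences from KI was called. Only the 84.7 CPM of KI replicate 3 stood apart from the other 12 Cre-positive kidneys, which lay between 48.1 and 63.2 CPM. Cldn6 ranged from 0.269 to 1.44 CPM over the Cre-positive kidneys, and its 4 groups overlapped.

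KI/Hif1α KO and KI/Hif2α KO kidneys were then compared directly. None of the 10 claudins was called by edgeR or DESeq2, 1 had an unadjusted p under 0.05, and 0.429% of all genes were called by edgeR, 0.329% higher and 0.0999% lower. DESeq2 called 3.16%, and 14.9% had an unadjusted p under 0.05. The 1 was Cldn15, named after its value was seen, which was higher in KI/Hif1α KO than in KI/Hif2α KO kidneys without overlap (log2 fold change 0.66, SE 0.20, edgeR adjusted p = 0.142). Of all genes, 8.31% were higher and 6.75% lower without overlap. The interaction of the losses, which asks if losing Hif1α acts differently with and without Hif2α, was called for none of the 10 by edgeR or DESeq2, and 1 (Cldn12, unadjusted p = 0.048) was under 0.05 before adjustment, as were 5.95% of all genes. The share of all genes with a called interaction was 0% in edgeR and 0.182% (31 genes) in DESeq2.

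Genes of the other lists moved in the knockout groups as well. Cldn10 was higher in KI/Hif1α KO (log2 fold change 1.08, SE 0.22, edgeR adjusted p = 0.015) and KI/DKO kidneys (1.28, SE 0.23, edgeR adjusted p = 0.00429) than in KI kidneys, and at 39.3 ± 8.13 and 45.4 ± 7.18 CPM it was still below the 177 ± 8.80 CPM of the controls. In KI/DKO kidneys Cldn19 (1.40, SE 0.31, edgeR adjusted p = 0.0112) and Cldn16 (0.94, SE 0.25, edgeR adjusted p = 0.0258) were higher too. The Cldn10 call in KI/Hif1α KO was lost without KI replicate 2 (edgeR adjusted p = 0.0544), the Cldn19 call without KI/DKO replicate 3 (0.0503), and the Cldn16 call without KI replicate 2 or 3 or KI/DKO replicate 2 or 3 (0.0896 to 0.0952). With only the compared groups in the fit, these 3 calls were lost as well (edgeR adjusted p 0.0611 to 0.0951). Of the other claudins tested, 1 of 7 was called in KI/Hif1α KO, 0 of 7 in KI/Hif2α KO and 3 of 7 in KI/DKO kidneys. The shares of all genes called were 5.44%, 1.39% and 12.7%. In KI/Hif2α KO kidneys 3 of the 7 had an unadjusted p under 0.05 in edgeR, as did 19.2% of all genes.

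Of the 31 tight junction partners, 5 were called in KI/Hif1α KO, 3 in KI/Hif2α KO and 5 in KI/DKO kidneys. Of all genes, 5.44%, 1.39% and 12.7% were called in these groups. Arhgef2, a guanine nucleotide exchange factor held at junctions, Ildr1, a relative of Lsr, and Jam3 were called higher in each of the 3 groups. The log2 fold changes of Ildr1 were 0.74, 0.44 and 0.73, those of Jam3 were 0.54, 0.68 and 0.82, and those of Arhgef2 were 0.38, 0.44 and 0.59. All 3 had fallen in KI kidneys, but the same 3 KI kidneys enter the fall and the rises, which are therefore not independent. The KI/DKO calls of these 3 genes and the KI/Hif1α KO call of Ildr1 held in every alternative. In KI/Hif1α KO kidneys the Jam3 call was lost without any KI replicate or KI/Hif1α KO replicate 1, 3 or 4 (edgeR adjusted p up to 0.0973), and the Arhgef2 call without KI replicate 2 or KI/Hif1α KO replicate 3 (up to 0.0583). With only the compared groups, Jam3 (0.0751) and Arhgef2 (0.0583) were lost there, and Jam3 also with the replicate block (0.0665). In limma on log2(TPM + 1), both were lost there (adjusted p = 0.0579 for Jam3 and 0.167 for Arhgef2). In KI/Hif2α KO kidneys all 3 calls were lost without KI replicate 2 or 3 and without KI/Hif2α KO replicate 3. Ildr1 and Jam3 were also lost without KI/Hif2α KO replicate 1, and Ildr1 and Arhgef2 without replicate 2 of that group (edgeR adjusted p up to 0.126). With only the compared groups in the fit, all 3 calls in KI/Hif2α KO were lost (edgeR adjusted p 0.135 to 0.198). With the replicate block, those of Arhgef2 (0.0528) and Jam3 (0.0772) were lost. In limma on log2(TPM + 0.1), those of Ildr1 (adjusted p = 0.0509) and Arhgef2 (0.0847) were lost. Prkcz, a polarity kinase, was lower in KI/Hif1α KO (−0.43, edgeR adjusted p = 0.0228) and KI/DKO kidneys (−0.37, edgeR adjusted p = 0.0321), Cgnl1 was higher in KI/Hif1α KO (0.42, edgeR adjusted p = 0.0429) and Tjp3 was higher in KI/DKO kidneys (0.89, edgeR adjusted p = 0.00594). The Tjp3 call held in every alternative, whereas those of Prkcz and Cgnl1 were lost with only the compared groups, with the replicate block, in limma on TPM and when single kidneys were left out. Prkcz was lost in KI/Hif1α KO without KI replicate 2 or 3 or KI/Hif1α KO replicate 1 or 3 (edgeR adjusted p up to 0.0916) and in KI/DKO without KI replicate 2 or 3 or any KI/DKO replicate (up to 0.155). Cgnl1 was lost without KI replicate 1 or 2 or KI/Hif1α KO replicate 1, 3 or 4 (up to 0.132).

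Of the 22 regulators, Tfap2b, a factor of the distal nephron, was higher and Snai2 lower in both KI/Hif1α KO (0.77 and −0.89) and KI/DKO kidneys (1.13 and −0.76), and in KI/DKO kidneys Gata3 (0.79), Casr (0.94) and St14 (0.52) were also higher. The Tfap2b call in KI/DKO held in every alternative. In KI/Hif1α KO kidneys Tfap2b was lost without KI replicate 2 or KI/Hif1α KO replicate 1 or 3 (edgeR adjusted p up to 0.0878), and Snai2 without any KI replicate or KI/Hif1α KO replicate 1 or 3 (up to 0.0869). In KI/DKO kidneys Snai2 was lost without any single replicate of either group (up to 0.149), and Gata3 without KI replicate 1 or 3 or KI/DKO replicate 1 or 3 (up to 0.157). Casr was lost without KI replicate 2 or 3 or KI/DKO replicate 2 or 3 (up to 0.132), and St14 without KI replicate 1 or 2 or any KI/DKO replicate (up to 0.149). With the replicate block, Gata3 (0.0592) and St14 (0.0596) were lost as well. With only the compared groups, Tfap2b and Snai2 in KI/Hif1α KO (both 0.0565) and Gata3 (0.0861), Casr (0.0675) and St14 (0.0602) in KI/DKO were lost. In limma on log2(TPM + 1), Gata3 (adjusted p = 0.0865) and Snai2 (0.0584) in KI/DKO were lost. None of the regulators was called in KI/Hif2α KO kidneys by edgeR, and 5 had an unadjusted p under 0.05, as did 19.2% of all genes.

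Segment, stromal, leukocyte and injury markers moved beside the claudins in these comparisons. Of all genes, 2.57% were called higher in KI/Hif1α KO, 0.741% in KI/Hif2α KO and 6.53% in KI/DKO kidneys. In KI/DKO kidneys 4 of 5 thick ascending limb markers (median log2 fold change 1.68), 5 of 11 proximal tubule markers (median 1.11) and 3 of 7 principal cell markers (median 1.08) rose. The principal cell sum was 487 to 622 CPM in KI/DKO and 342 to 429 CPM in KI kidneys, alongside the rise of Cldn8. In KI/Hif1α KO kidneys 4 of 5 thick ascending limb and 4 of 11 proximal tubule markers rose. None of the 7 principal cell markers was called there (median 0.43), though 4 had an unadjusted p under 0.05 in edgeR. The share of all genes under that threshold was not taken for this comparison, so the 4 have no background beside them. In KI/Hif2α KO kidneys 1 of 5 thick ascending limb markers was called, higher (median 1.21). None of the 11 proximal tubule (median 0.81) or 7 principal cell markers (median 0.87) was called there. Of these, 6 and 5 had an unadjusted p under 0.05 in edgeR, as did 19.2% of all genes. Endothelial markers, set beside Cldn5, were called in 1 of 10 cases in KI/Hif1α KO and in 0 of 10 in KI/DKO kidneys (2 at an unadjusted p under 0.05, a threshold passed by 29.1% of all genes), and their sum was 414 to 535 CPM in KI/DKO kidneys. Of 5 stromal markers, 2 rose in KI/Hif1α KO, 2 in KI/Hif2α KO and 3 in KI/DKO kidneys. The collagen genes Col3a1 (1.06, 1.42 and 1.64 on the log2 scale in the 3 groups) and Col1a1 (0.73, 1.10 and 1.32) rose in each. The stromal sum was 446 to 492 CPM in KI, 550.03 to 692 CPM in KI/Hif1α KO, 729.6 to 773 CPM in KI/Hif2α KO and 659 to 981 CPM in KI/DKO kidneys. Of 6 leukocyte markers, 1 rose in KI/Hif1α KO and 2 in KI/DKO kidneys, while none was called in KI/Hif2α KO kidneys by edgeR (4 at an unadjusted p under 0.05). The leukocyte sum was 116 to 199 CPM in KI and 207 to 258 CPM in KI/DKO kidneys. Of 9 broad epithelial markers, 2 rose in KI/Hif1α KO and the same 2 in KI/DKO kidneys. They were the adhesion genes Epcam (0.62 and 0.77) and Cdh16 (0.37 and 0.32), the latter being the gene whose promoter drives Cre. None of the 9 was called in KI/Hif2α KO kidneys by edgeR, where 2 had an unadjusted p under 0.05. Of 4 distal convoluted tubule markers, 2 rose in KI/Hif1α KO, 0 in KI/Hif2α KO and 2 in KI/DKO kidneys. None of 6 intercalated cell markers was called, though 5 had an unadjusted p under 0.05 in KI/DKO kidneys. Of 5 tubular injury markers, 2 were lower in KI/DKO kidneys, Sox9 (−1.13) and Vcam1 (−0.46), where 6.19% of all genes were called lower. None of the 5 was called in the single knockouts. The part of all these markers in the claudin differences was not tested.

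Some of the claudins have several annotated transcripts. Cldn3, Cldn4, Cldn5 and Cldn8 have 1 transcript each. Cldn7 divided its TPM between Cldn7-201 (1335 bases) and Cldn7-205, a short transcript of 373 bases with 40.3% of the TPM in Cre(−), 36.2% in KI and 38.6% in KI/DKO kidneys. Since TPM divides by length, that short transcript raises the TPM of Cldn7 beyond its share of counts (51.5 of the Cre(−) counts on average, against 305 for Cldn7-201). Cldn12-202 held 68.0% of Cldn12 TPM in Cre(−) and 78.1% in KI kidneys, and Cldn15-201 held 87.3% and 93.7% of Cldn15 TPM. These shares are estimates from the assignment of single-end reads and carry its error.

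The genes most like each claudin were taken by Pearson correlation of log2 CPM over the 17 libraries, as a description. Cldn4 was most like Fam129b (r = 0.99), with r = 0.92 after group means were removed. For Cldn1 they were Jpt1 (0.98) and Prkag2 (0.98), for Cldn3 Klc3 (0.97) and Znrf1 (0.97), and for Cldn7 Rtp1 (0.96) and Lpcat4 (0.96). Among the genes most like Cldn8 was Hsd11b2 (0.94), a principal cell marker with r = 0.77 after group means were removed. Cldn15 was most like Adgrf5 (0.95) and Tie1 (0.93), the latter an endothelial marker with r = 0.88 after group means were removed. Cldn2 was most like Cdhr5 (0.96) and Bdh2 (0.96), Cldn12 like Ptch1 (0.98) and Tmem80 (0.97), Cldn5 like Klhl26 (0.92) and Nxpe4 (0.91), and Cldn6, at its low counts, like Dhh (0.75) and Erg28 (0.74).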

How the data were processed

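Kidney RNA of 17 mice was sequenced from stranded mRNA libraries as single-end reads. The submitters' processing notes name Trim Galore 0.6.6 with cutadapt 2.5 and STAR 2.7.9a, and list the builds hg38 and GRCm38. The methods name RSEM for abundance and alignment to hg38, whereas the files list mouse transcripts, so positions are given on GRCm38. Per transcript, the authors deposited expected counts, which are unscaled estimates, and TPM, which corrects for transcript length and library size.

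Of 119353 transcripts, 116770 (97.84%) were matched to GENCODE M21, with 99.04% to 99.24% of the counts, and 2583 were left out. Both units were summed to 35971 genes, and the summed counts were rounded. Groups were compared with the quasi-likelihood test of edgeR 4.0.16 (R 4.3.3), using TMM factors and filterByExpr (minimum count 10). All 17 libraries entered a single model with group as the factor. P-values were adjusted by Benjamini-Hochberg over 17011 genes, with a threshold of 0.05. In the main test each P-value sets a group difference against the spread between mice, estimated over all groups with information shared between genes. The study's own tool, DESeq2 (here 1.42.0), was an alternative, as were its size factors, no filter, only the compared groups, the replicate number as a block, limma 3.58.1 on log2(TPM + 1) and log2(TPM + 0.1), either Cre(−) pair, and each replicate left out. The edgeR, DESeq2 and limma fits were run on simulated counts for KI against Cre(−) only, with far fewer genes changed than were called here. The knockout comparisons, the interaction, the Cre(−) pairs and the left-out replicates were not simulated.

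The claudins, lists and tests were chosen with earlier results of these data known. Named genes were the 10 claudins, the 4 genes of each list with the largest called change per direction in KI against Cre(−), list genes called in a knockout comparison, and the 2 genes most correlated with each claudin. Ocln and single marker genes were named beside these. Some genes chosen this way are not reported here. Motifs were searched in RefSeq windows with Python 3.11.15, pandas 2.3.3 and numpy 2.4.6, and figures were drawn with matplotlib 3.10.9. No library pair was identical (0 pairs).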

Additional observations from a re-analysis of the deposited data

Results flagged for a closer look

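Among the 10 claudins in the Cre(−) and KI/Hif1α KO groups, the only ones with 4 kidneys, 20 sets of 4 values were tested for a value far from the rest by Dixon's criterion at 95%. The 1 that was marked was Cldn6 in Cre(−) replicate 4, at 0.379 CPM against 0.728 to 0.754 CPM in the other 3 controls. The counts behind these values were 6 against 11, 14 and 11. Chance marks about 1 set in 20.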

How the results depend on the processing

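In KI against Cre(−), all 8 calls held under each replicate left out, DESeq2, its size factors, no filter, only the compared groups, either Cre(−) pair and the replicate block. In limma on TPM, 6 of 10 were called. With 1 replicate left out, the number called was 8 to 9 in KI against Cre(−), 0 to 2 in KI/Hif1α KO, 0 to 2 in KI/Hif2α KO and 2 to 4 in KI/DKO against KI. In KI/Hif1α KO it was 2 in the main test and 1 with only the compared groups, with the replicate block and in limma at either pseudocount. In KI/Hif2α KO it was 0 in the main test and 3 in DESeq2. In KI/DKO it was 5 in the main test and 3 with only the compared groups or with the replicate block. Cldn2 made up 40.8% of the TPM of the 32 Cldn genes in the files in Cre(−), 35.7% in KI, 28.9% in KI/Hif1α KO and 24.1% in KI/DKO kidneys, and Cldn4 made up 1.95% in Cre(−) kidneys. The cause of these changes was not tested.

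Directions turned for differences that were not called. In KI against Cre(−), Cldn5 was 0.24 and 0.26 in limma at pseudocounts of 1 and 0.1, and Cldn6 was −0.38 with the replicate block, −0.18 against the floxed controls and −1.22 to 0.40 with 1 replicate left out. Cldn4 ranged from −0.25 to 0.096 in KI/Hif1α KO, from −0.24 to 0.40 in KI/Hif2α KO and from −0.16 to 0.28 in KI/DKO with 1 replicate left out, and in KI/Hif2α KO was −0.010 with the replicate block and −0.025 and −0.027 in limma. Cldn3 ranged from −0.047 to 0.52 in KI/Hif2α KO and from −0.21 to 0.29 in KI/DKO with 1 left out, and in KI/DKO was 0.005 with only the compared groups, 0.002 with the replicate block and 0.10 and 0.11 in limma. Cldn6 ranged from −0.10 to 1.51 in KI/Hif1α KO and from −0.022 to 1.59 in KI/DKO. In KI/Hif1α KO against KI/Hif2α KO with 1 left out, Cldn2 ranged from −0.002 to 0.18, Cldn3 from −0.18 to 0.34, Cldn4 from −0.49 to 0.14, Cldn7 from −0.086 to 0.18 and Cldn12 from −0.031 to 0.13, and Cldn7 was −0.014 in limma.

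Replicate numbers did not pair the kidneys. The 31 equal-number pairs had correlations from −0.23 to 0.22 (mean −0.027), and 6 of 17 libraries correlated best with their own number. Over all genes, the block called 479 instead of 925 genes in KI/Hif1α KO, 76 instead of 236 in KI/Hif2α KO, 1712 instead of 2164 in KI/DKO and 19 instead of 73 between the single knockouts. DESeq2 called 1665, 1015, 2905 and 537, only the compared groups gave 246, 2, 1028 and 132, and limma on log2(TPM + 0.1) gave 552, 83, 1589 and 27. With 1 replicate left out these were 273 to 1169, 13 to 857, 722 to 2291 and 1 to 193. In KI/Hif2α KO the share higher was 53.4% in edgeR and 70.6% in limma on log2(TPM + 1). Depth limits Cldn6 most, at 5 to 33 counts per library.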
